A study of Mus musculus with 8 samples.

Results

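Whole thymocytes of B6 mice were compared with DP thymocytes purified from the B6 thymus, to find which stages of T cell development and which other cells the whole preparation contains beside the DP stage. The comparison rests on 4 of the 8 libraries of the study, 2 of whole thymocytes and 2 of DP thymocytes, picked by population and by the strain named in each library name. The other 4 libraries hold the same populations from BALB mice; they entered the estimate of the spread and 1 test of the difference between the strains. All mice were labelled wild type, and no treatment, age or substrain is given. DP cells were gated as CD4+ CD8+ and CD69-, with low or medium staining by H57, an antibody to the beta chain of the T cell receptor, on a FACSAria III. The labels mention sorting for whole thymocytes too, but give no gate for them. They do not say whether the libraries of a group came from separate mice, so the p-values measure only the spread between these libraries, which may be technical.

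T cells develop in the thymus from progenitors that carry neither CD4 nor CD8 (DN cells). Notch signals and the pre-T cell receptor drive DN cells to the DP stage, where the Rag recombinase assembles the receptor alpha chain. DP cells whose receptor binds self peptide on MHC molecules of the cortical epithelium are positively selected, raise CD69 and CD5, choose the CD4 or CD8 lineage, move to the medulla and leave through the receptor for sphingosine phosphate. Macrophages, dendritic cells, B cells, epithelium and fibroblasts share the organ with them and nurse, select or clear thymocytes. In bulk RNA, a smaller share of cells of a type cannot be told apart from less RNA per cell, and this holds for every value that follows.

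Genes of the interferon response and of MHC class II antigen presentation were 2 of the groups that were higher in whole thymocytes, and each is known for a shared promoter element, so promoters that hold it are shown first. For interferon-responsive genes the pattern searched was GAAA, any 2 bases and GAAA again, on either strand, the core of the element that IRF and STAT proteins bind. For class II genes it was CCAAT on either strand, the Y box of the class II promoter. The sequences are the 250 bases before the transcription start on the gene's own strand, from RefSeq on GRCm38.p6, with each match in capitals. In these strands the interferon element reads as its reverse complement, copies of TTTC, and CCAAT may read as ATTGG. Trim30a (chr7:104465194-104465443, minus strand), Ifit1 (chr19:34640639-34640888, plus strand) and Ifit3 (chr19:34583279-34583528, plus strand) encode an antiviral ubiquitin ligase and RNA-binding antiviral proteins.
Trim30a: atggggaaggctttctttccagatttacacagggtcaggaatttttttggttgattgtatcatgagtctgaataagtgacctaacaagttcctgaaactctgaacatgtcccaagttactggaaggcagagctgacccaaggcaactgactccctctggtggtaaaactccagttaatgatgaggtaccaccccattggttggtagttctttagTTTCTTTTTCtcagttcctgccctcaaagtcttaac
Ifit1: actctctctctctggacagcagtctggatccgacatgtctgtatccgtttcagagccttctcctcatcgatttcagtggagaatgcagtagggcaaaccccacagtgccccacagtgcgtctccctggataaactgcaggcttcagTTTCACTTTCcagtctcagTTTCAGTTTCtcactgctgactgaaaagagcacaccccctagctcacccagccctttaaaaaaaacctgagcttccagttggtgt
Ifit3: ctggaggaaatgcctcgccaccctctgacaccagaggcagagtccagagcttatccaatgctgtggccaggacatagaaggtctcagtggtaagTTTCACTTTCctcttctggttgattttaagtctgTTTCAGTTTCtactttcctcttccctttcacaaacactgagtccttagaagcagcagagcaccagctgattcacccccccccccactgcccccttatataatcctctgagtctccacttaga
H2-Eb1 (chr17:34305617-34305866, plus strand) and H2-Aa (chr17:34287824-34288073, minus strand) encode class II chains, and H2-Ob (chr17:34238655-34238904, plus strand) a chain that modulates class II peptide loading.
H2-Eb1: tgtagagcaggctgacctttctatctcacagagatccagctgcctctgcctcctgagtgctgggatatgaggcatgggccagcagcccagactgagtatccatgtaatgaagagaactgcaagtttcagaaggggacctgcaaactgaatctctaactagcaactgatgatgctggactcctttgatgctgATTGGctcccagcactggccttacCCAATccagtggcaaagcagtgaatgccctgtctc
H2-Aa: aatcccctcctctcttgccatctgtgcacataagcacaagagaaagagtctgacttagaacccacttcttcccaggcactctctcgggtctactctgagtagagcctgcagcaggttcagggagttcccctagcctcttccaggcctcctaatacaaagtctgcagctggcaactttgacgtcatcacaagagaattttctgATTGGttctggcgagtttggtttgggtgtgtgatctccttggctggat
H2-Ob: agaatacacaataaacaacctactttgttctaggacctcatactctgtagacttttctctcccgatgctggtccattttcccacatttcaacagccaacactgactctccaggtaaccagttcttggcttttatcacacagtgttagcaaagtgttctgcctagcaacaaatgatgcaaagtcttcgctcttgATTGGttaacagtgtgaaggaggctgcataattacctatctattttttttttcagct
Counted from the start site, the interferon element began at position −36 in Trim30a, and its first copy at −104 in Ifit1 and −156 in Ifit3, which hold 2 copies each. CCAAT began at −48 in H2-Aa and −57 in H2-Ob, and first at −59 in H2-Eb1, which holds 2 copies. A promoter was given for 21 of the 30 listed interferon genes, and 14 of them (66.7%) held the element, against 3.46% of 27025 genes with a promoter of the same length. Among interferon genes that rose in whole thymocytes 6 of 10 with a promoter held it, and among those that did not pass the test 6 of 8. CCAAT was present in the promoters of all 7 class II genes that had one, 4 that rose and 3 that did not pass, against 37.5% of all genes. A match describes these letters and is not evidence of binding, and no match says only that the letters are not in this window.

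The sorted libraries held 3274924 and 4560030 counts in genes, and the whole libraries 3907143 and 4069166. Between 22.6% and 26.3% of the reads of a B6 library were in genes. Levels are given as CPM, counts normalised to the scaled total of the library, in the order replicate 1 and replicate 2, and log2 fold changes are whole over sorted with their standard errors. Replicates of a group correlated at 0.985 (sorted) and 0.988 (whole) in log2 CPM across genes, which are not independent replicates. All 4 B6 libraries had 6 to 12 counts of Xist and 456 to 529 of the Y-linked Ddx3y. In BALB, whole replicate 1 had 12313 counts of Xist and 0 of the Y-linked genes, whole replicate 2 had 203 of Xist, and DP replicate 1 stood apart from DP replicate 2. Some genes that all cells use had few counts, such as Gapdh with 11 to 33 counts against 11622 to 15638 for Actb, and 5986 symbols were listed at 0 in all 8 libraries. A listed 0 therefore does not show that a gene was silent, and levels are compared between libraries, not between genes.

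Of 11409 genes tested, 1159 (10.2%) were called by the quasi-likelihood test of edgeR at an adjusted p (Benjamini-Hochberg) under 0.05. Of these, 786 (6.89%) were higher in whole thymocytes and 373 (3.27%) were lower. The higher genes moved further, with a median log2 fold change of 1.88 against −0.51 for the lower ones and 0.0023 for all genes tested. Over 4-fold changes numbered 380 upward and 7 downward, and over 16-fold changes 184 and 2. The counts depended on single libraries. Leaving out 1 B6 library left 416 (sorted replicate 1), 486 (sorted replicate 2), 378 (whole replicate 1) or 450 (whole replicate 2) called genes, and without BALB DP replicate 1 or 2 there were 2190 or 2201. A fit of the 4 B6 libraries alone called 2568 genes, 1330 higher (12.2%) and 1238 lower (11.4%) of 10862 tested. Of these, 1074 were among the 1159, all in the same direction (92.7% of the 1159 and 41.8% of the 2568). Gene groups were read from 29 lists, whose 302 tested genes held 138 that rose and 23 that fell. A gene with almost no counts in the sorted libraries could pass the filter only through whole libraries. It could then be called only as higher. On lists made largely of such genes, the lack of falls was set by the filter.

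**Figure D1:**
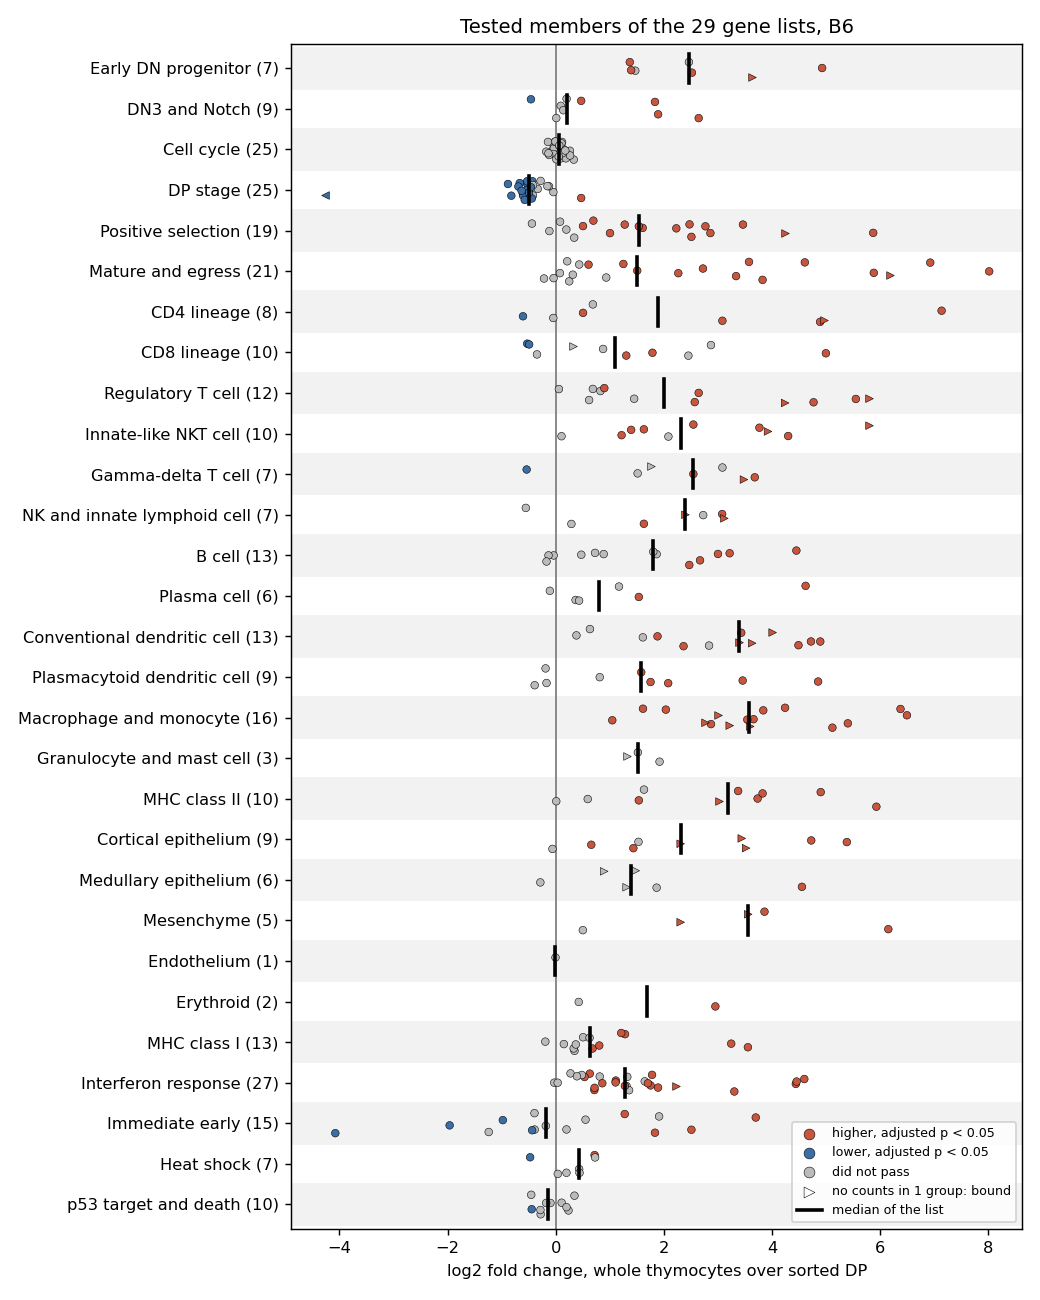
Log2 fold change of whole over sorted DP thymocytes in B6 (x axis) for every tested member of the 29 gene lists (y axis, number tested in brackets). Points are genes, triangles are genes with no counts in 1 of the groups drawn at their bound, and bars are list medians with those genes at their bound. The DP stage genes lie mostly left of 0, cell cycle genes lie around 0, and all 16 macrophage and monocyte genes lie right of 0.

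The genes that define the DP stage were lower in whole thymocytes, most of them by about the same amount. Of 25 DP stage genes tested, 17 fell, 1 rose and 7 did not pass. Their median log2 fold change was −0.49, against 0.0023 for all genes tested, and their summed level was 37573 and 35905 CPM in the sorted and 24221 and 24772 CPM in the whole libraries, 66.7% of the sorted mean. Rag1, the catalytic subunit of the recombinase, stood at 10504 and 9864 CPM in sorted DP cells and 5372 and 5662 CPM in whole thymocytes. The groups lay far apart, and the whole level was 54.2% of the sorted one, a log2 fold change of −0.88 ± 0.076 (edgeR adjusted p = 3.17e-05). Rag2, its partner, stood at 328 and 303 CPM (sorted) and 234 and 236 CPM (whole), 74.6% of the sorted level, and did not pass (edgeR adjusted p = 0.107), although it passed in the 4 B6 libraries alone. Cd8a, the alpha chain of the CD8 coreceptor, went from 1914 and 1833 to 1272 and 1326 CPM. Cd4, the other coreceptor, went from 1662 and 1681 to 1097 and 1099 CPM, so both coreceptors of the DP stage were at 69.4% and 65.7% of their sorted level. Bcl2l1, which encodes the survival protein Bcl-xL, went from 385 and 396 to 259.7 and 224 CPM.

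Arpp21, a thymocyte phosphoprotein gene, fell to 65.7% of its sorted level, from 2605 and 2615 to 1679 and 1750.0 CPM. Dntt, the polymerase that adds bases at receptor junctions, fell to 71%, from 1976 and 1801 to 1308 and 1374 CPM. Below the coreceptors lay the repressor Bcl6 at 63.01% and the transcription factor Ets2 at 56.6%, with log2 fold changes of −0.67 ± 0.094 and −0.82 ± 0.098. Mogat1, an acyltransferase of lipid synthesis, was at 7.53 and 6.86 CPM in sorted DP cells and had no counts in whole thymocytes. Against a floor of 3 counts over the group it was at least 19.4-fold lower. Lef1, a partner of Tcf7 in the Wnt pathway, was the 1 gene of the list that rose, from 485 and 436 to 660.4 and 614 CPM, a log2 fold change of 0.47 ± 0.095. Tcf7 went the other way, from 4146 and 3826 to 2899 and 2899.9 CPM. The 7 genes that did not pass were Rag2, Nwd1, Aqp11, Ccr9, Spo11, Cxcr4 and Cd1d1, at 74.6% to 96.9% of the sorted level. Calls ended without 1 library for Cd8b1 and Tcf7 (sorted replicate 1 or whole replicate 1), Dntt (any but sorted replicate 2) and Lef1 (any but sorted replicate 1).

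**Figure D2:**
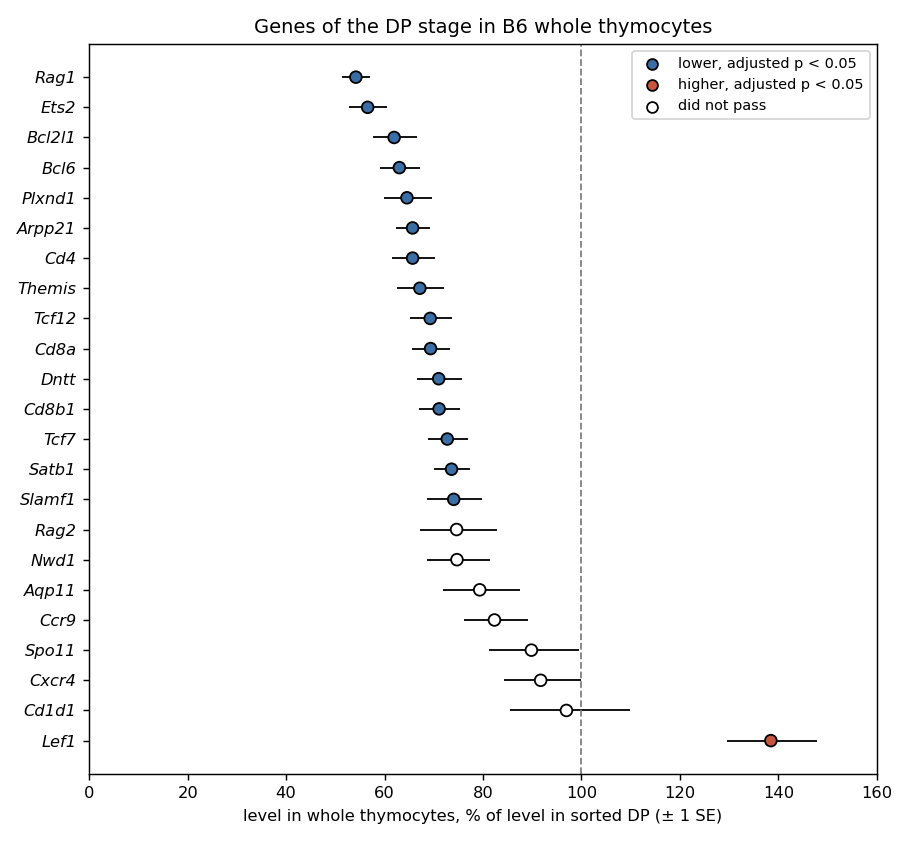
Level of DP stage genes in B6 whole thymocytes as a percent of its level in sorted DP thymocytes (x axis), with bars of 1 standard error from the fit, and Mogat1, which had no counts in whole thymocytes, left out. Rag1 is lowest at 54.2%, the drawn genes that fell lie between 54.2% and 74.0%, and Lef1 alone lies to the right of 100%.

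Genes of the earliest DN progenitors were higher in whole thymocytes. Of 13 listed genes 7 were tested, 5 rose and 2 did not pass, with a median log2 fold change of 2.46. Kit, the receptor for stem cell factor, stood at 3.14 and 3.199 CPM in the sorted and at 8.999 and 7.498 CPM in the whole libraries (log2 fold change 1.37 ± 0.38, edgeR adjusted p = 0.0392). Bcl11a, a progenitor transcription factor, had 0 and 1 count in the sorted libraries and 5.499 and 4.35 CPM in the whole ones, a ratio of 37.2 with a 95% counting interval of 6.301 to 1505. Flt3, a progenitor receptor kinase that dendritic cells also carry, had no counts in sorted DP cells and 6.25 and 3.63 CPM in whole thymocytes, at least 12.4-fold higher. Cd44, an adhesion receptor of DN and of activated cells, rose from 10.04 and 9.37 to 27 and 23.9 CPM. Mef2c, a myeloid and lymphoid progenitor factor, rose from 0.628 and 0.686 to 3.25 and 4.596 CPM. Lyl1, another progenitor factor, had 2 and 1 counts in the sorted libraries and 2 and 2.66 CPM in the whole ones, but did not pass (edgeR adjusted p = 0.0857). Without any 1 of the 4 B6 libraries the calls of Kit and Mef2c ended, and that of Kit also ended without BALB whole replicate 1 or 2. Markers of dendritic and myeloid cells, given below, were higher in the same libraries, and their part in this list was not tested.

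The later DN stage, at which Notch signals and the pre-T cell receptor act, gave a mixed list. Of 9 tested genes 4 rose, 1 fell and 4 did not pass, with a median of 0.20. Il2ra, the interleukin 2 receptor alpha chain of DN and regulatory T cells, stood at 10.4 and 10.7 CPM in sorted and 76.99 and 55.4 CPM in whole libraries, 6.24-fold higher. Dtx1, a direct Notch target, rose from 7.85 and 6.63 to 29 and 24.4 CPM, a log2 fold change of 1.89 ± 0.24. Hes1, another Notch target, had 1 and 0 counts in sorted DP cells and 4.75 and 1.69 CPM in whole thymocytes, a ratio of 24.2 with a counting interval of 3.97 to 991; it was too low to be tested. Ptcra, the pre-T cell receptor alpha chain, lay in the same range in both groups, at 21.03 and 18.3 CPM sorted and 21 and 18.4 CPM whole. The receptors Notch1 and Notch3 did not pass either, at log2 fold changes of 0.20 ± 0.11 and 0.092 ± 0.17. Myc, a growth regulator of the DN to DP transition and of activated cells, rose from 14.1 and 17.8 to 64.5 and 50.8 CPM. The members that fell and rose beside these were Tcf7 and Lef1, which the DP list holds too.

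No cell cycle gene passed the test. None of 25 tested genes was called in edgeR, in DESeq2 or in limma-voom, against 10.2% of all 11409 genes in edgeR. At an unadjusted p under 0.05 in edgeR 3 of the 25 were higher and 0 lower, and the median was 0.065. Mki67, a marker of cycling cells, stood at 3518 and 3226 CPM in sorted and 2861 and 3104 CPM in whole libraries. Top2a, which untangles chromosomes in mitosis, stood at 1447 and 1392 CPM (sorted) and 1332 and 1411 CPM (whole), so its groups overlapped. Mcm2, a subunit of the replicative helicase, was at 199 and 198 CPM (sorted) and 214 and 212 CPM (whole). The mitotic cyclin Ccnb1 was at 24.8 and 19.4 CPM (sorted) and 22.5 and 24.2 CPM (whole). The 3 genes higher at an unadjusted p were the helicase genes Mcm3, Mcm5 and Mcm6. Their log2 fold changes were 0.33 ± 0.11, 0.26 ± 0.10 and 0.26 ± 0.11. Mcm4 and Mcm7 stood at 0.15 ± 0.11 and 0.13 ± 0.10, while Mki67 and Cenpf stood at −0.18 ± 0.10 and −0.14 ± 0.11. Standard errors of the list lay between 0.10 and 0.19 on the log2 scale. In the fit of the 4 B6 libraries alone 3 members were called higher and 1, Mki67, lower. That fit called 12.2% of all genes higher and 11.4% lower.

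Genes induced by T cell receptor signals at positive selection were higher in whole thymocytes. The sort excluded CD69+ cells and cells with high H57 staining, so cells at this step were gated out of the sorted group. The gate for CD4 and CD8 likewise left out cells that do not carry both coreceptors. The direction of the DP list, and of each list of another stage or cell type, is therefore not independent of the gate. Of 19 tested genes 14 rose, 0 fell and 5 did not pass, with a median log2 fold change of 1.54. Cd69 itself stood at 13.5 and 14.4 CPM in sorted and 44.99 and 40.4 CPM in whole libraries, 3.05-fold higher. Its transcript was thus present in the libraries of cells sorted as CD69-, and which of these cells held it was not tested. Itm2a, a membrane protein induced at selection, went from 8.48 and 7.77 to 95.5 and 83.2 CPM, a log2 fold change of 3.46 ± 0.17 (edgeR adjusted p = 3.74e-07). Nr4a1, a receptor-induced nuclear receptor, went from 9.103 and 9.37 to 55.2 and 50.3 CPM. Its relative Nr4a3 had 3 and 0 counts in the sorted libraries and 25.7 and 24.4 CPM in the whole ones, a ratio of 63.2 with a counting interval of 21.3 to 309.

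The early growth response gene Egr1 rose from 46.5 and 35.2 to 103 and 93.1 CPM, and its corepressor Nab2 from 10.04 and 7.31 to 64.5 and 52 CPM, while Egr2 was listed at 0 in all libraries. Id2, an inhibitor of E proteins, rose from 4.39 and 5.03 to 22.7 and 22.01 CPM. Cd5, which dampens receptor signals, was 2.004-fold higher, and Tox, a factor needed for CD4 lineage cells, 1.62-fold higher, from 56.5 and 71.3 to 112 and 96.03 CPM. Tnfrsf9, a costimulatory receptor, had no counts in sorted DP cells and 7.999 and 7.01 CPM in whole thymocytes. The 5 genes that did not pass were Nfatc1, Cd6, Id3, Cd27 and Cd28, with log2 fold changes between −0.44 and 0.34. Tox lost its call without sorted replicate 1 or whole replicate 1, and Gata3 and Irf4 lost theirs without any 1 of the 4 B6 libraries.

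**Figure D3:**
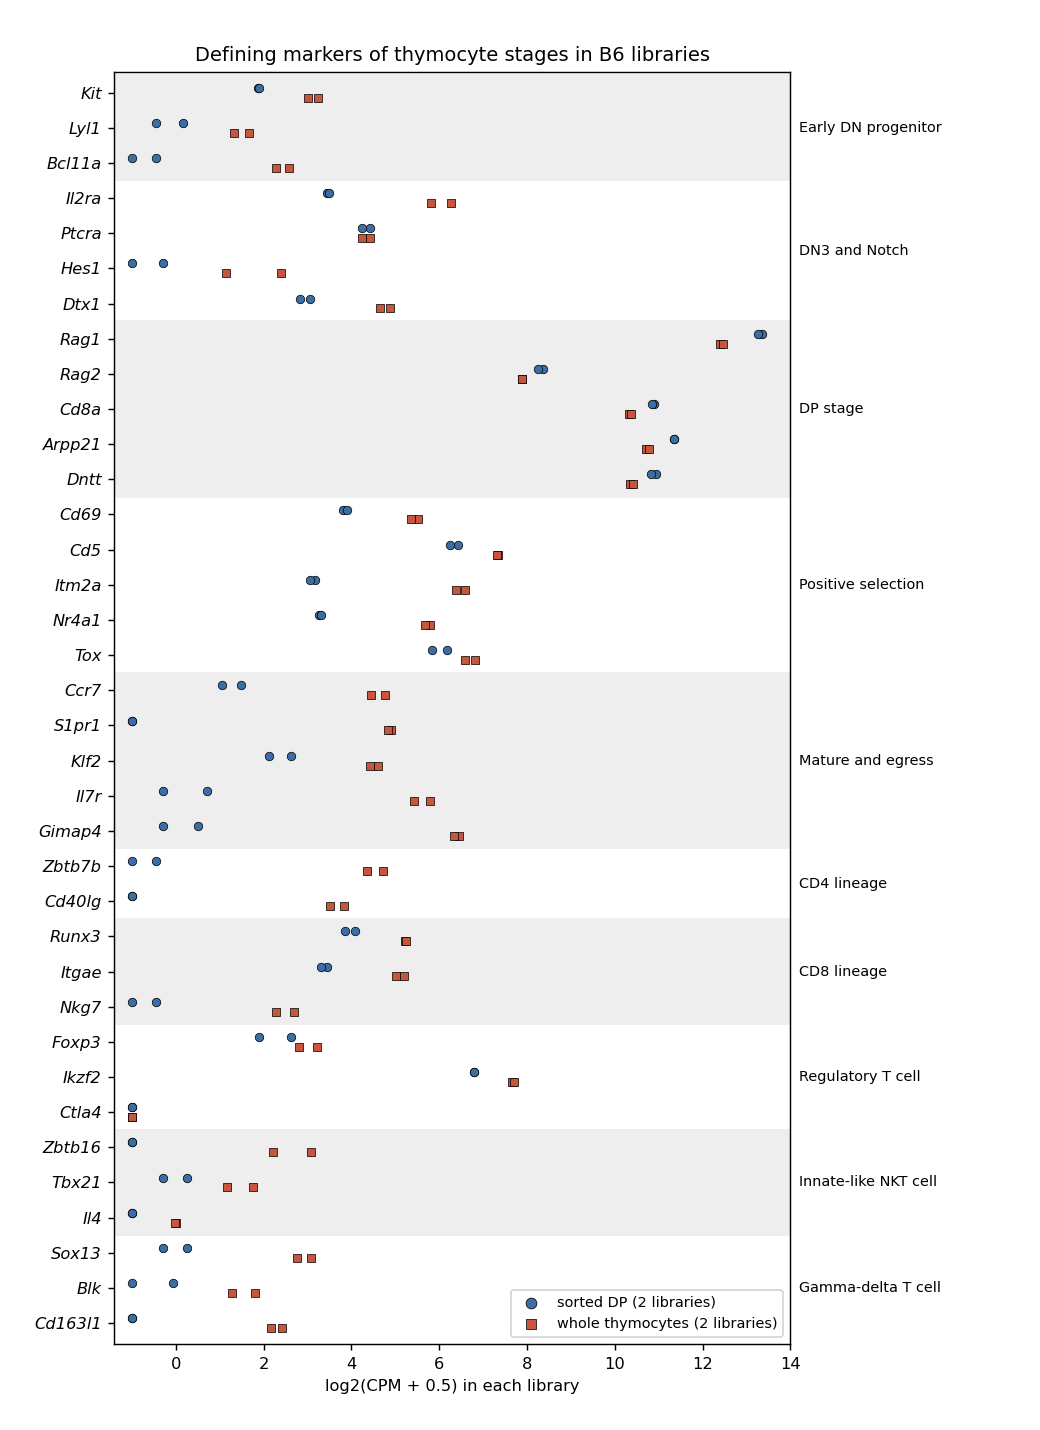
Log2 of CPM plus 0.5 (x axis) of defining markers of 10 thymocyte stages and lineages (y axis) in each B6 library, circles for sorted DP and squares for whole thymocytes. DP stage genes are lower in both whole libraries, Ptcra and Ctla4 coincide, and markers of the other stages lie to the right in whole thymocytes, with S1pr1, Cd40lg, Zbtb16, Il4 and Cd163l1 at 0 counts in sorted DP cells.

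Genes of mature thymocytes ready to leave the thymus were higher in whole thymocytes, though not all of them. Of 21 tested genes 13 rose, 0 fell and 8 did not pass, with a median of 1.51. S1pr1, the exit receptor, had no counts in sorted DP cells and 29.2 and 28.1 CPM in whole thymocytes. Gimap4, a GTPase of mature T cells, had 1 and 4 counts in the sorted libraries and 86.99 and 80.8 CPM in the whole ones. Il7r, the interleukin 7 receptor chain that DN and mature cells carry and DP cells switch off, stood at 0.314 and 1.14 CPM (sorted) and 54.5 and 42.3 CPM (whole), a log2 fold change of 5.88 ± 0.39 (edgeR adjusted p = 3.75e-06). Samhd1, a nucleotide hydrolase that restricts viruses, had 1 count in each sorted library and 83.5 and 69.4 CPM in the whole ones, a ratio of 289 with a counting interval of 79.6 to 2389. Ccr7, the receptor that guides cells to the medulla, rose from 1.57 and 2.29 to 26.5 and 21.3 CPM, and Klf2, the factor that switches on S1pr1, from 5.65 and 3.88 to 24 and 21.04 CPM.

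The survival gene Bcl2 was 6.595-fold higher, opposite to Bcl2l1 of the same family. The neighbouring Gimap genes differed among themselves. Gimap3 rose from 1.88 and 2.06 to 52.7 and 45.2 CPM and Gimap8 from 102 and 107 to 159.7 and 158 CPM, while Gimap5, Gimap6, Gimap7 and Gimap9 did not pass, at log2 fold changes between −0.041 and 0.93. Ms4a4b, a membrane protein of T cells, rose from 0.942 and 1.37 to 19.7 and 14.8 CPM. Foxo1, Cd52 and Emb did not pass either. Reads of the Gimap genes may be split between similar copies, so single members are uncertain.

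Regulators of the CD4 and CD8 lineages were higher in whole thymocytes, while the coreceptors in the same lists fell with the DP genes. Zbtb7b, the factor that fixes the CD4 lineage, had 0 and 1 counts in the sorted libraries and 26 and 19.8 CPM in the whole ones, and Cd40lg, the helper ligand, 0 counts and 13.7 and 10.9 CPM. Runx3, which fixes the CD8 lineage, rose from 16.3 and 13.9 to 36.99 and 37.2 CPM, and the integrin Itgae from 10.4 and 9.37 to 35.99 and 31.9 CPM. Nkg7, a granule protein of cytotoxic cells, had 0 and 1 counts and 5.999 and 4.35 CPM. Of 8 CD4 lineage genes tested 5 rose and Cd4 fell, and of 10 CD8 lineage genes 3 rose and Cd8a and Cd8b1 fell. Gata3 rose 1.42-fold, the sialyltransferase gene St8sia6 was higher by a ratio of 36.3 (interval 6.13 to 1468), and the ligand gene Tnfsf8 by a ratio of 9.296 (interval 2.26 to 82.03). The call of Tnfsf8 ended without any 1 of the 4 B6 libraries. Eomes, Ccl5, Cst7 and Cxcr3, genes of effector or memory-like CD8 cells, did not pass, with few counts in sorted cells, nor did the more abundant Ifngr1, an interferon receptor chain.

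Regulatory T cell genes rose in part, and the defining factor was not among them. Foxp3 stood at 5.65 and 3.199 CPM in sorted and 8.75 and 6.53 CPM in whole libraries, all whole values above all sorted ones, but did not pass (log2 fold change 0.83 ± 0.38, edgeR adjusted p = 0.211). Ctla4 was listed at 0 in all libraries. Ikzf2, a regulatory T cell factor that DP cells expressed too, went from 110.5 and 109 to 201 and 208 CPM. Of 12 tested genes 7 rose, 0 fell and 5 did not pass, with a median of 2.01. Il2rb, the receptor chain for interleukins 2 and 15, had no counts in sorted DP cells and 24.7 and 19.6 CPM in whole thymocytes, and Folr4, a regulatory T cell surface protein, 1 and 0 counts against 8.999 and 6.29 CPM. Both Il2ra and Il2rb sit on lists of other cells as well.

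Whole thymocytes were also higher in genes of NKT and other innate-like cells. Of 10 NKT genes tested 8 rose and 0 fell, with a median of 2.31. Zbtb16, the factor that directs the innate-like program, had no counts in sorted DP cells and 7.999 and 4.11 CPM in whole thymocytes, at least 15.2-fold higher. Il17rb, a receptor of an NKT subset, rose from 21.7 and 25.1 to 56.2 and 53.2 CPM, Gzma, a granzyme, from 8.16 and 9.597 to 26 and 29.5 CPM, and Plac8 showed a ratio of 21.1, counting interval 6.91 to 105. Tbx21, the factor of interferon gamma producing subsets, did not pass at 0.314 and 0.686 CPM (sorted) and 1.75 and 2.903 CPM (whole). The cytokine gene Il4 had 0 counts in sorted and 2 in each whole library. Of 7 gamma-delta genes tested 3 rose, 1 fell and 3 did not pass. Sox13, a gamma-delta factor, rose from 0.314 and 0.686 to 6.25 and 7.98 CPM, and Cd163l1, a scavenger receptor of interleukin 17 producing cells, had 0 counts against 3.999 and 4.84 CPM. Maf, a factor of both kinds of cell, rose from 0.942 and 0.686 to 3.75 and 5.81 CPM, a call that ended without any B6 library but whole replicate 1. Blk, a kinase of B and gamma-delta cells, did not pass (edgeR adjusted p = 0.105). The gamma-delta receptor constant genes were not found among the symbols and were not analysed here.

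Among cells that are not T cells, macrophage genes rose. All 16 tested genes of 23 found rose, with a median log2 fold change of 4.68, or 3.57 with genes that had no sorted counts at their bound. The 7 genes that were not tested are too low in both groups to say how they moved. Of the 23 found, 7 had no counts in sorted DP cells and others had few. Such genes, where tested, could be called only as higher, so a rise of all 16 was largely fixed by the filter. The summed level of the list was 13.8 and 21.9 CPM in sorted and 180.0 and 177 CPM in whole libraries. Lyz2, lysozyme of myeloid cells, had 0 and 4 counts in the sorted libraries and 19.7 and 18.9 CPM in the whole ones. C1qa and C1qb, complement chains made by tissue macrophages, were at 5.75 and 3.87 CPM and at 7.25 and 6.53 CPM in whole thymocytes, with 0 and 1 counts over both sorted libraries. Mpeg1, a pore protein of phagocytes, was higher by a ratio of 92.5 (interval 25.3 to 769), and Vcam1, an adhesion protein of resident macrophages and stroma, rose from 0.314 and 1.14 to 14.2 and 16.7 CPM. Csf1r, the growth factor receptor of the lineage, rose less, from 2.51 and 3.66 to 9.499 and 9.92 CPM. Mertk, which takes up dying cells, had no counts in sorted DP cells and 3.75 and 2.66 CPM in whole thymocytes, and Lgmn, a lysosomal protease, rose from 0.628 and 1.14 to 11.7 and 10.4 CPM. Emr1, the older symbol of Adgre1, which encodes F4/80, had a ratio of 7.75 (counting interval 2.36 to 40.1). Csf1r lost its call without any B6 library but sorted replicate 2, and Mertk without sorted replicate 2 or whole replicate 1.

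Dendritic cell genes were higher as well, those of conventional cells more than those of plasmacytoid cells in the medians, a difference that was not tested. Of 13 conventional dendritic cell genes tested 9 rose and 0 fell, with a median of 3.43, or 3.40 with genes without sorted counts at their bound. Itgax, which encodes CD11c, had no counts in sorted DP cells and 7.499 and 5.32 CPM in whole thymocytes. Sirpa, a marker of one conventional subset, went from 0 and 3 counts to 11.2 and 11.1 CPM, and Wdfy4, needed for cross-presentation, rose from 1.88 and 1.37 to 47.5 and 48.6 CPM (edgeR adjusted p = 1.49e-06). Clec9a, a receptor of the cross-presenting subset, did not pass at 2 and 0 counts against 2 and 2.18 CPM, nor did Zbtb46 at 2.197 and 0.686 CPM (sorted) and 2.75 and 1.45 CPM (whole), whose groups overlapped. Fscn1 and Ccl22, genes of activated migratory cells, were at 10.5 and 8.71 CPM and at 4.75 and 3.63 CPM in whole thymocytes, with 3 and 0 counts over both sorted libraries. Irf8, a dendritic and B cell factor, rose from 4.39 and 2.74 to 15.2 and 20.6 CPM. Of 9 plasmacytoid genes 5 rose and 4 did not pass, with a median of 1.58. Siglech, their surface marker, was higher by a ratio of 35.3 (interval 5.97 to 1432), and the nucleic acid sensors Tlr7 and Tlr9 rose from 1.26 and 1.83 to 8.75 and 4.84 CPM and from 0 and 0.457 to 3.75 and 2.66 CPM. Runx2, a factor of these cells, was 2.99-fold higher. The call of Tlr9 ended without any 1 of the 4 B6 libraries, that of Tlr7 without any but whole replicate 2 and that of Runx2 without sorted replicate 1 or whole replicate 2. Of the other defining genes, Cox6a2 was not tested at 3 sorted and 4 whole counts and Pld4 was listed at 0.

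**Figure D4:**
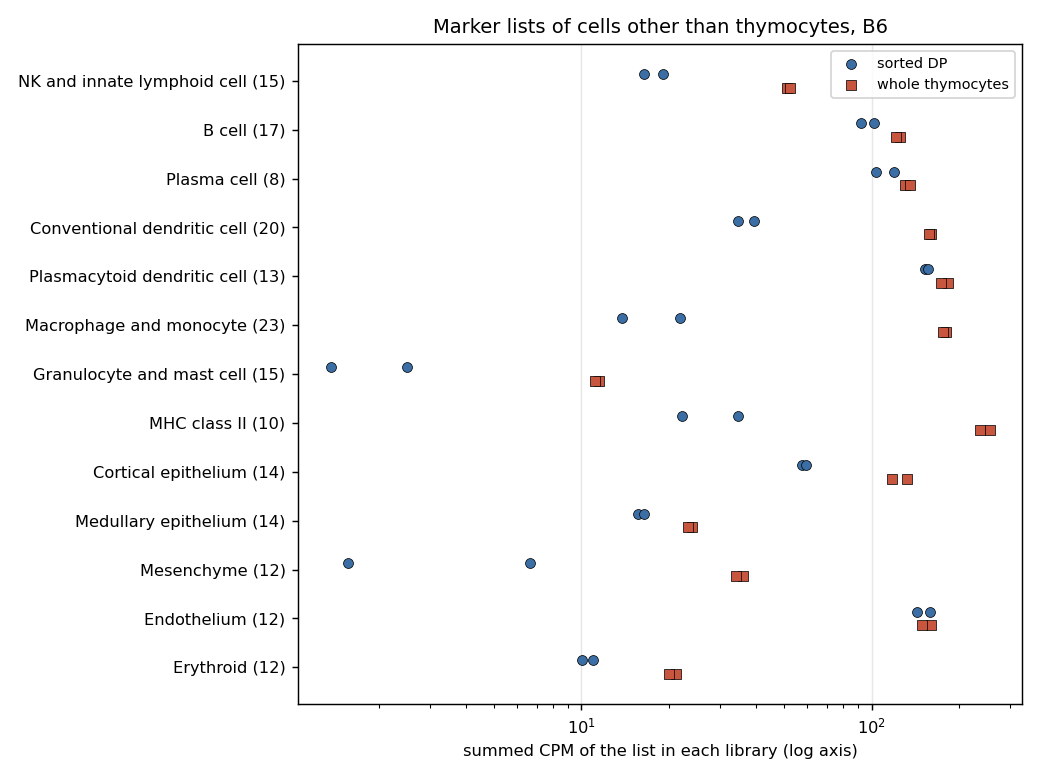
Summed CPM (x axis, log scale) of the marker lists of cells other than thymocytes and of MHC class II (y axis, genes found in brackets) in each B6 library, circles for sorted DP and squares for whole thymocytes. The macrophage list moves from 13.8 and 21.9 to 180.0 and 177 CPM, while the B cell, plasma cell and plasmacytoid sums, which hold genes also present in sorted cells, change by ratios of 1.27, 1.19 and 1.15, and the endothelial sums overlap.

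MHC class II genes, which professional antigen-presenting cells and thymic epithelium express, were higher in whole thymocytes. Of 10 tested genes 7 rose and 3 did not pass, with a median of 3.55, or 3.19 with H2-DMb1, which had no sorted counts, at its bound. Cd74, the invariant chain, stood at 4.71 and 9.597 CPM in sorted and 104 and 94.6 CPM in whole libraries. H2-Ab1, a class II beta chain, went from 2.83 and 3.66 to 48.7 and 45.5 CPM, and its partner H2-Aa from 1 and 2 counts to 31 and 21.04 CPM. H2-Eb1, whose promoter is shown above, went from 0.942 and 1.14 to 30.5 and 34.3 CPM, a log2 fold change of 4.90 ± 0.31 (edgeR adjusted p = 5.42e-06). H2-Ob rose from 0.628 and 0.686 to 7.499 and 6.77 CPM. Ciita, the master regulator of these promoters, rose by less, from 3.77 and 6.398 to 14.7 and 15.7 CPM. The peptide editors H2-DMa, H2-DMb2 and H2-Oa did not pass, and H2-DMb1, with no sorted counts, was called but lost the call without any 1 of the 4 B6 libraries. Ciita lost its call without sorted replicate 1.

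B cell genes were a partial list. Of 13 tested genes 5 rose, 0 fell and 8 did not pass, with a median of 1.80. Ms4a1, which encodes CD20, had 0 and 2 counts in the sorted libraries and 2.25 and 3.14 CPM in the whole ones. Its call ended without any 1 of the 4 B6 libraries. Cd79a, the signalling chain of the B cell receptor, did not pass at 1.26 and 1.599 CPM (sorted) and 3.25 and 2.18 CPM (whole), and Pax5, the lineage factor, had 0 and 1 counts against 1.25 and 0.968 CPM and was not tested. Cd22, an inhibitory receptor, had a ratio of 24.2 (counting interval 6.36 to 205), the scaffold gene Bank1 rose from 0.942 and 0.914 to 7.499 and 7.74 CPM, and the coactivator gene Pou2af1 from 0.628 and 1.14 to 5.999 and 6.05 CPM. Bank1 lost its call without sorted replicate 2. Among plasma cell genes 2 of 6 tested rose. Igj, the joining chain of secreted antibodies, had 0 and 3 counts in the sorted libraries and 10.5 and 10.4 CPM in the whole ones, and the second was Irf4. Mzb1 did not pass at 0.628 and 0.457 CPM (sorted) and 1.5 and 0.968 CPM (whole), and Sdc1 was not tested at 6 sorted and 12 whole counts. Immunoglobulin constant genes were not found among the symbols and were not analysed here.

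NK and innate lymphoid genes were mostly at the lower limit of the data. Of 15 genes 7 were tested, 4 rose and 3 did not pass, and with the 4 B6 libraries alone 2 of 4 rose. The NK receptor genes Klrk1 and Klrd1 had no counts in sorted DP cells. In whole thymocytes Klrk1 was at 3.999 and 2.903 CPM and Klrd1 at 1.75 and 2.42 CPM. Tyrobp, their adaptor, which myeloid cells also use, had 1 and 2 counts against 5.25 and 1.94 CPM, and Gzma was the remaining gene that rose. The defining Ncr1 had 0 counts in sorted and 0 and 2 in whole libraries, and Il1rl1 0 in sorted and 2 and 1 in whole libraries. Klrd1 lost its call without any 1 of the 4 B6 libraries, Tyrobp without any but whole replicate 2 and Klrk1 without sorted replicate 2 or whole replicate 1.

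Genes of cortical epithelium were higher in whole thymocytes. Of 9 tested genes 7 rose, with a median of 4.72, or 2.31 with genes without sorted counts at their bound. Prss16, a protease for peptides that drive positive selection, had 0 and 2 counts in the sorted libraries and 8.999 and 15.5 CPM in the whole ones. The keratins Krt8 and Krt18 were at 3.499 and 5.08 CPM and at 3.25 and 5.32 CPM in whole thymocytes, with 0 and 1 counts over both sorted libraries. Ccl25, the ligand of Ccr9, rose from 3.77 and 4.799 to 11.5 and 12.1 CPM, and Tbata had no counts in sorted cells and 3.499 and 5.56 CPM. Ly75, a receptor that dendritic cells share, rose from 48.03 and 48.9 to 74.5 and 78.4 CPM. Psmb11, the thymoproteasome subunit, did not pass at 0.628 and 0.686 CPM (sorted) and 1.75 and 2.18 CPM (whole), and Foxn1, the factor of thymic epithelium, had 0 counts in sorted and 1 and 2 in whole libraries. Ccl25 and Ly75 lost their calls without any 1 of the 4 B6 libraries, and Tbata without sorted or whole replicate 2.

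In medullary epithelium 1 of 6 tested genes rose, where 6.89% of all genes tested were called higher. In the fit without the 2 BALB libraries that stood apart 3 of 6 rose, but that fit called 12.7% of all genes higher. Aire, which makes these cells transcribe tissue antigens, had 1 and 0 counts in the sorted libraries and 3.999 and 3.63 CPM in the whole ones, a ratio of 28.8 with a counting interval of 4.803 to 1174, and its call ended without sorted replicate 2 or whole replicate 1. Krt5 did not pass, with 0 counts in sorted and 2 and 4 in whole libraries, and Krt14 and Fezf2 had 0 counts in sorted and 2 and 3 over both whole libraries. Of 5 tested genes of mesenchyme 4 rose, and with the 4 B6 libraries alone 2 of 3. Fn1, fibronectin, had 0 and 1 counts against 9.999 and 13.1 CPM, and Col3a1, a fibrillar collagen, 0 counts against 4.75 and 4.596 CPM. Col1a2 and Col6a1 were called as well but not without any 1 of the 4 B6 libraries. Col1a1 was not tested, with 0 and 1 counts against 3.499 and 1.94 CPM, and Pdgfra had 0 counts against 0.75 and 0.242 CPM.

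Of 12 endothelial genes 11 were too low to be tested, so the list as a whole could not be compared. Pecam1, which thymocytes also express, was the 1 gene tested and stood at 142 and 156 CPM in sorted and 152 and 144 CPM in whole libraries, while Cdh5 and Kdr had 0 sorted counts and 4 and 6 counts over both whole libraries. Plvap had 8 counts over the sorted and 11 over the whole libraries. Neither DESeq2 nor limma-voom called Pecam1, and it did not pass at an unadjusted p under 0.05. In the fit without the 2 BALB libraries that stood apart, where 12.7% of 11762 genes were called higher and 11.2% lower, 2 members were tested and 1, Egfl7, was called higher, with 0 and 3 counts in the sorted libraries and 3.25 and 1.94 CPM in the whole ones. None of 3 tested granulocyte and mast cell genes passed, 1 of them at an unadjusted p under 0.05 and 0 by DESeq2 or limma-voom. With the 4 B6 libraries alone 0 members of this list had enough counts to be tested. The fit without these 2 BALB libraries tested 8 of the list and called 2 higher, Ngp and Mpo, and the summed level of the list was 2.51 and 1.37 CPM in sorted and 11.5 and 11.1 CPM in whole libraries. The neutrophil gene S100a8 was at 0 and 0.686 CPM (sorted) and 1 and 0.968 CPM (whole), S100a9 at 1.26 and 0.229 CPM (sorted) and 2 and 1.94 CPM (whole), and Cpa3, a mast cell protease, had 0 counts against 1.5 and 1.94 CPM. Of the red cell genes, Beta-s, a beta globin symbol, rose from 0.628 and 1.37 to 6.999 and 9.68 CPM, a call that ended without sorted replicate 1 or whole replicate 2. Alas2 did not pass, and Hba-a1 was listed at 0 in B6. Globin reads can be split between near-identical copies.

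MHC class I genes, which all nucleated cells can express, rose in part. Of 13 tested genes 6 rose, 0 fell and 7 did not pass, with a median of 0.62, and 10 rose with the 4 B6 libraries alone. H2-K1, a class I heavy chain, stood at 14.1 and 15.1 CPM in sorted and 179.7 and 165 CPM in whole libraries, and B2m, the shared light chain, at 80.7 and 67.2 CPM (sorted) and 176 and 165 CPM (whole). Nlrc5, the transactivator of class I promoters, rose from 10.99 and 9.37 to 93.5 and 98.2 CPM, a log2 fold change of 3.24 ± 0.16 (edgeR adjusted p = 3.01e-07). H2-D1 went from 8.79 and 11.2 to 27.2 and 22.01 CPM and H2-Q4 from 54.6 and 52.8 to 95.99 and 91.4 CPM. Of the loading machinery, Tapbp rose 1.602-fold, while the peptide transporter Tap1 did not pass at 80.7 and 71.3 CPM (sorted) and 96.7 and 96.03 CPM (whole) (edgeR adjusted p = 0.187), although it passed in the 4 B6 libraries alone. Class I genes have near-identical copies, so single members are uncertain. The call of Tapbp ended without any 1 of the 4 B6 libraries and that of H2-D1 without any but whole replicate 2.

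Interferon-responsive genes were higher in whole thymocytes. Of 27 tested genes 17 rose, 0 fell and 10 did not pass, with a median of 1.28. The summed level of the list went from 684 and 633 to 1049 and 1005 CPM. Mx1, an antiviral GTPase, had 1 count in each sorted library and 5.999 and 8.22 CPM in the whole ones. Ifit1, shown above with 2 copies of the promoter element, had 0 and 4 counts against 11 and 13.1 CPM. Trim30a rose from 29.8 and 29.9 to 68.2 and 60.5 CPM, and Oasl2, an antiviral enzyme homologue, from 0.314 and 0.457 to 8.499 and 10.2 CPM. Irf7, the factor that amplifies interferon production, rose from 5.02 and 8.23 to 25.5 and 20.6 CPM, a log2 fold change of 1.75 ± 0.30, and Rtp4 from 3.77 and 3.199 to 11.5 and 12.3 CPM. Isg15, a ubiquitin-like protein, did not pass at 3.14 and 0.457 CPM (sorted) and 4.499 and 3.63 CPM (whole), the sorted replicates being far apart. Mature thymocyte and myeloid lists were higher in the same libraries, and their part in this list was not tested.

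**Figure D5:**
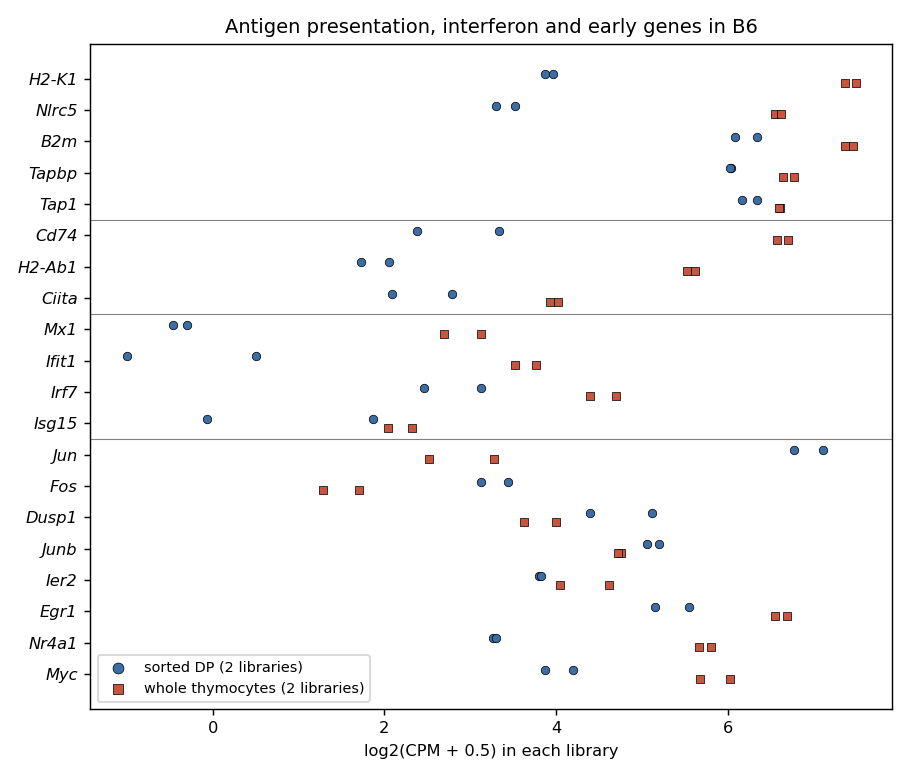
Log2 of CPM plus 0.5 (x axis) of genes of MHC class I, MHC class II, the interferon response and the immediate early group (y axis, from top to bottom, separated by lines) in each B6 library, circles for sorted DP and squares for whole thymocytes. H2-K1, Nlrc5 and Cd74 lie well to the right in whole thymocytes, Jun, Fos and Dusp1 lie to the left, and Egr1, Nr4a1 and Myc lie to the right.

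Immediate early genes split, and Jun gave one of the largest falls in the data. Jun, an AP-1 subunit, stood at 137 and 109 CPM in sorted DP cells and 5.25 and 9.19 CPM in whole thymocytes, 5.93% of the sorted level (log2 fold change −4.08 ± 0.24, edgeR adjusted p = 1.49e-06). Fos, its partner, went from 10.4 and 8.23 to 2.75 and 1.94 CPM, a call that ended without whole replicate 2. Of 15 tested genes 4 rose, 4 fell and 7 did not pass. The other 2 that fell, named after their values were seen, were Dusp1, a phosphatase that ends MAP kinase signals, from 34.2 and 20.6 to 15.5 and 11.9 CPM, and Klf6, from 90.4 and 89.3 to 65.2 and 67.5 CPM. Those that rose were Egr1, Nr4a1 and Myc, given above, and Fosl2, a Fos relative with 1 count in each sorted library and 3.25 and 4.35 CPM in the whole ones. Junb stood at 36.1 and 32.9 CPM (sorted) and 26.5 and 25.9 CPM (whole) and Ier2 at 13.5 and 13.7 CPM (sorted) and 24 and 15.96 CPM (whole), and neither passed. The groups may differ in how they were sorted as well as in their cells, and the part of each in this list cannot be told apart. Fosl2 lost its call without sorted or whole replicate 2.

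The heat shock and p53 target lists were short, and of all 11409 genes tested 6.89% were called higher and 3.27% lower. Of 7 heat shock genes tested Hspd1, a mitochondrial chaperone, rose from 60.6 and 55.3 to 92.7 and 97.5 CPM, and Dnajb1, a cytosolic cochaperone, fell from 151 and 136 to 94.2 and 112 CPM. Hspa8 stood at 536 and 403 CPM (sorted) and 436 and 527 CPM (whole) with overlapping groups, and the stress-induced Hspa1a had 3 sorted and 5 whole counts. Of 10 p53 target and death genes tested Trp53inp1 fell, from 1328 and 1282 to 921 and 995 CPM. The BH3-only genes Bbc3 and Bcl2l11 and the p53 inhibitor gene Mdm2 did not pass, with log2 fold changes of −0.28 ± 0.25, 0.20 ± 0.12 and −0.28 ± 0.11. Dnajb1 and Trp53inp1 lost their calls without any 1 of the 4 B6 libraries, and Hspd1 without sorted replicate 2.

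Outside the lists, genes with the largest rises included several with no counts in sorted DP cells. Chl1, a cell adhesion gene, was at 27.7 and 20.1 CPM in whole thymocytes and at least 60.1-fold higher. Wdfy3, an autophagy scaffold, was at 9.75 and 13.5 CPM, Igfbp5 at 9.75 and 4.84 CPM and 5830411N06Rik at 9.499 and 10.6 CPM, all without sorted counts. Igfbp4, like Igfbp5 a binding protein of insulin-like growth factors, had 1 and 0 counts in the sorted libraries and 35.2 and 40.6 CPM in the whole ones, a ratio of 287 with a counting interval of 51.2 to 11382. The largest falls outside the lists were smaller. Ttc21a, a gene of cilia, went from 5.65 and 4.57 CPM to 0 and 3 counts, and Nanos2, an RNA-binding protein known from germ cells, from 7.53 and 5.71 to 0.5 and 1.45 CPM. Arrdc3, an arrestin-domain gene, fell from 65.3 and 58.04 to 19 and 15.7 CPM, and Ppp1r15a, a stress-induced phosphatase subunit, from 51.2 and 44.1 to 12 and 17.2 CPM (edgeR adjusted p = 0.000691). Plag1, 1810019D21Rik and 4930471G03Rik were at 29.99%, 25.7% and 30.3% of the sorted level. Plag1 and 4930471G03Rik lost their calls without any 1 of the 4 B6 libraries, 1810019D21Rik without any but sorted replicate 1, Arrdc3 without any but sorted replicate 2, and Ttc21a and Nanos2 without sorted or whole replicate 1.

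The same contrast in BALB shares no library with that in B6, and a test of the difference between them called 14 of the 11409 genes (0.123%). None of the 302 tested list genes was among these in edgeR, nor in DESeq2 or limma-voom. At an unadjusted p under 0.05 in edgeR there were 71 of the 302, against 1243 of all 11409 genes tested. Of 25 cell cycle genes 22 had such a p, more than on any other of the 29 lists. In BALB 18 of them were called lower and 0 higher, against 6.59% and 10.6% of all genes tested there, with a median of −0.54 against 0.065 in B6. Mki67 was at 5485 and 4426 CPM (sorted) and 3187 and 3061 CPM (whole) in BALB, and Top2a at 2448 and 2044 CPM (sorted) and 1546 and 1390.0 CPM (whole), so both sorted BALB libraries lay above both whole ones. Without BALB DP replicate 1 and BALB whole replicate 1 the BALB count was 13, and 11 of the 25 genes had a called strain difference. Leaving out 1 BALB library gave 13 (DP replicate 1), 22 (DP replicate 2), 12 (whole replicate 1) or 9 (whole replicate 2) genes lower in BALB, and 1, 21, 0 and 0 of the 25 with a called strain difference. Other fitted medians in B6 and BALB were −0.49 and −0.42 for the DP stage, 1.51 and 2.08 for mature thymocytes, 2.01 and 3.93 for regulatory T cells and 4.68 and 6.14 for macrophages. These medians hold genes without sorted counts, whose fitted fold is not reliable. With such genes at their bound the macrophage median in B6 was 3.57, and no such median was made for BALB. Differences between these medians were not tested. The count of 14 was 0 without B6 whole replicate 2 and 1311 without BALB DP replicate 2, so single libraries decide it, and it was 139 without BALB DP replicate 1 and BALB whole replicate 1, the libraries that stood apart. With 0 called, 754 genes still had an unadjusted p under 0.05 in edgeR.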

How the data were processed

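RNA of B6 and BALB thymocytes was sequenced in 8 libraries, 2 in each of 4 groups, made with a kit that does not keep the strand, so overlapping antisense genes cannot be told apart. The submitters' processing notes name HISAT2 2.2.0, HTSeq with no version given in the sources used here, DESeq2 1.42.1 and the build mm10. The deposited files hold raw counts per gene symbol. They list 23420 symbols, of which 21777 are in GENCODE M21, and no mitochondrial mt- genes. HTSeq's totals outside genes were left out, among them 45.0% to 48.9% of the reads of a B6 library that were in no gene.

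Counts were tested in R 4.3.3 with edgeR 4.0.16 on all 8 libraries, with 1 coefficient per group, TMM scaling and filterByExpr. This kept 11409 genes and left 6025 with a count untested. The common biological coefficient of variation was 0.114. A gene was called when its p, adjusted by Benjamini and Hochberg, was under 0.05. CPM uses the scaled library size, so a percent of the sorted level is the fitted fold. A group without counts is given a floor of 3 counts over its libraries for folds. A group holding 1 to 3 counts gets a ratio and its exact 95% counting interval. Floors and intervals cover counting error only. The 29 lists had 461 entries, of which 447 were found, 5 under an older symbol. Members, lists and rules were chosen with earlier results of these data known. Genes named are the defining members of each list, up to 4 further called members per list by smallest p, the 10 largest called changes in each direction with groups that do not overlap and at least 5 CPM, and up to 6 genes per direction for the strain difference. Others are named to account for members that did not pass, or for calls of 5 or fewer, after their values were seen. Some listed genes are counted but not reported here by name. Alternatives were other scalings, filters and tests (DESeq2 1.42.0, limma 3.58.1), a replicate block and fewer libraries. The fit of the B6 comparison was tested on simulated data of 11089 genes: it called 50 of 50 genes changed by 2 on the log2 scale in each direction, 43 of 50 raised by 1, 35 of 50 lowered by 1 and 15 of 10889 unchanged ones. The changed genes were drawn only from genes above a set expected count. All simulated libraries shared a common profile apart from these changes, and none stood apart. The simulated rates therefore do not cover genes with few sorted counts or the shifts seen when a library is left out. Figures used Python 3.11.15 and matplotlib 3.10.9.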

Additional observations from a re-analysis of the deposited data

Results flagged for a closer look

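The change from sorted DP to whole thymocytes differed between B6 and BALB in 14 genes, by edgeR's quasi-likelihood test of the difference, and the 8 that the naming rule picks are given. The values are B6 minus BALB on the log2 scale. Kbtbd11 differed by −2.92 ± 0.32 (adjusted p = 0.00502), rising from 19.1 and 18.3 to 61.99 and 65.3 CPM in B6 and from 1.401 and 2.33 to 45.6 and 43.9 CPM in BALB. Als2cl differed by −1.97 ± 0.23, at 124 and 138 CPM (sorted) and 167 and 147 CPM (whole) in B6 against 9.46 and 13.2 CPM (sorted) and 54.8 and 46.7 CPM (whole) in BALB. Cmah, a sialic acid hydroxylase, differed by −1.80 ± 0.21, with 187 and 232 CPM (sorted) and 181 and 179 CPM (whole) in B6 against 18.05 and 23.3 CPM (sorted) and 63.03 and 57.4 CPM (whole) in BALB. Pde3b, a phosphodiesterase, differed by −1.73 ± 0.17, its sorted level being 86.3 and 83.9 CPM in B6 and 21.4 and 22.5 CPM in BALB. St6gal1, a sialyltransferase, differed by −1.71 ± 0.20, its sorted level being 46.5 and 41.6 CPM in B6 and 14.4 and 16.7 CPM in BALB. Dst, a cytoskeletal linker, differed by −1.42 ± 0.16, its whole level being 95.5 and 97.7 CPM in B6 and 187 and 193 CPM in BALB. The 1500009L16Rik gene differed by 3.14 ± 0.47 (adjusted p = 0.0276), rising from 2.83 and 3.199 to 10.7 and 12.1 CPM in B6 and going from 17.3 and 9.71 to 6.52 and 5.49 CPM in BALB. The Y-linked Eif2s3y differed by 4.16 ± 0.66 (adjusted p = 0.0408), with 74.1 and 66.95 CPM (sorted) and 74.5 and 62.6 CPM (whole) in B6 and 84.1 and 69.9 CPM (sorted) and 0 and 8.49 CPM (whole) in BALB, where whole replicate 1 had 0 counts of each Y-linked gene counted. Without B6 whole replicate 2 the test called 0 genes.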

How the results depend on the processing

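Of 172 named genes with a test, 115 stayed on the same side of the threshold in each alternative run and none reversed in any of them. Of the 142 that were called, 49 lost the call without some 1 library. Of the 30 that were not, 8 were called in some alternative. Against 1159 called genes (786 higher and 373 lower) and 14 with a strain difference, DESeq2 size factors gave 1156 and upper-quartile factors 1128. Without a filter there were 1199 higher and 364 with a strain difference. A stricter filter, of 50 counts on average and 1 CPM in at least 2 libraries, tests fewer genes and gave 512, 331 higher and 181 lower. The DESeq2 Wald test gave 748, with 200 lower and 24 with a strain difference, and ended 12 calls, among them those of Kit, Mef2c, Irf4, Tnfsf8, Ms4a1, Tlr9, Tyrobp, Col6a1, Dnajb1, Pde3b and 4930471G03Rik. The replicate block ended those of Kit, Irf4, Tnfsf8 and Pde3b, and limma-voom gave 8 with a strain difference. Without both BALB libraries that stood apart (BALB DP replicate 1 with 3.14% of Rn45s, and whole replicate 1 with 12313 counts of Xist) there were 2809, 1494 higher and 1315 lower, and 139 with a strain difference. The 4 B6 libraries alone gave 2568, 1330 higher and 1238 lower. Leaving out 1 library gave 378 to 2201 called, 333 to 1257 higher, 45 to 944 lower and 0 to 1311 with a strain difference. The calls of Kit, Irf4, Tnfsf8, Ms4a1, Pde3b and 4930471G03Rik also ended without BALB whole replicate 1 and without BALB whole replicate 2. That of Col6a1 also ended without BALB whole replicate 2. A group left with 1 library is assumed to vary like the others. The cause of these shifts was not tested. With the replicate number as a replicate block there were 1033 called (722 higher, 311 lower) and 11 with a strain difference, the labels state no pairing, and same-numbered B6 libraries did not deviate together (correlation 0.0061). Depth limits genes under about 1 CPM, which rest on a few counts.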
